A study of Homo sapiens with 3 samples.

Results

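A set of 8 genes that was close to silent in at least 1 of 3 related oral cancer cell lines and clearly transcribed in another was examined: CCDC155, SLC6A11, ACKR3, RBBP8NL, MYADM, AUTS2, SH3GL2 and MYEF2. They were chosen by their raw read counts, near 0 in 1 line and over 300 in another, and are 8 of the 19220 genes in the count table. Their counts and ratios are therefore given as a description, with no test. With near 0 taken as at most 3 counts, 20 genes of the table (0.104%) met the rule, 7 of these 8 among them. ACKR3 stood just outside, with 5 counts in its lowest line, and with a limit of 10 counts 44 genes met the rule, all 8 among them.

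The 3 libraries were bulk RNA-seq of CAL27, an oral squamous cell carcinoma (OSCC) line, and of 2 drug-resistant lines made from it. CAL27 (genotype label WT) was grown drug-free, CAL27/5FU (5-fluorouracil resistant) was kept in 10 μM 5FU, and CAL27/OXA (oxaliplatin resistant) was kept in 10 μM OXA, all in the same serum-containing high-glucose DMEM. 5FU is an antimetabolite that blocks thymidylate synthesis, and OXA (oxaliplatin) is a platinum drug that crosslinks DNA. CAL27/5FU was obtained by raising the 5FU concentration over roughly a year. How CAL27/OXA was derived, and whether either line came from 1 clone, is not given in the sources used here. Each resistant line was cultured with its drug, so the presence of the drug and the state of resistance cannot be told apart.

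Each line had 1 library with a sample label, and both resistant lines were set against the same CAL27 library. A second column bearing the name of each line has no sample label and was not used here, so the values below have no replicate check and no p-value. Total counts were 41786182 in the parental line, 37297713 in CAL27/5FU and 43455488 in CAL27/OXA, and between 9992 and 10116 genes per library had over 300 counts, while 4725 to 4844 had at most 3. Intervals are exact 95% limits (Poisson for a count, Clopper-Pearson for a ratio of 2 counts) and cover counting error only. A count of 0 was replaced by a floor of 3 counts, and the ratio to this floor is given as at least so many fold. The 2-sided interval of a 0 count reaches 3.69, so the exact 95% limits of these ratios are somewhat lower, for example 280-fold for CCDC155 in CAL27/OXA. Squamous markers (KRT5, KRT14, KRT6A, KRT17, TP63, SFN, PERP and CDH1) were present in all 3 lines, 8 of 8 with 948 counts or more. Their summed FPKM (fragments per kilobase, scaled to library size) was 6810 in the parental line, 1674 in CAL27/5FU and 2469 in CAL27/OXA. Of the markers of other cell types, COL3A1 (fibroblasts) had 0 counts in all 3 libraries, PTPRC (leukocytes) 2 or fewer and VWF (endothelium) 44 or fewer. Others were present, and some were higher in the resistant lines: LUM had 120, 414 and 877 counts in CAL27, CAL27/5FU and CAL27/OXA, COL1A2 90, 300 and 212, and CDH5 43, 338 and 163, while COL1A1 had 1050 to 1387 and CD68 1827 to 5055. The summed FPKM was 7.37, 11.6 and 14.6 for 6 fibroblast markers, 41.6, 27.2 and 64.2 for 5 leukocyte markers and 0.437, 2.29 and 1.06 for 4 endothelial markers, in the same order. Whether these shifts play a part in the values of the 8 genes was not tested. In bulk RNA, fewer cells that express a gene and less RNA per cell cannot be told apart.

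The 8 genes belong to different cell functions, and several are best known from tissues other than oral epithelium. CCDC155, also called KASH5, sits in the outer nuclear membrane of germ cells and couples meiotic chromosomes through SUN1 to the dynein motor. SLC6A11 (GAT-3) takes up the neurotransmitter GABA, mainly in brain astrocytes. ACKR3 (CXCR7) is an atypical chemokine receptor that binds and removes CXCL12 and CXCL11. RBBP8NL resembles the N-terminal part of RBBP8 (CtIP), a protein of DNA end resection, and its own function is little known. MYADM is a membrane protein of the MARVEL domain family found in lipid rafts. AUTS2 is a nuclear protein that joins variant Polycomb repressive complexes and is known from brain development. SH3GL2 (endophilin A1) bends membranes during synaptic vesicle endocytosis. MYEF2 is an RNA recognition motif protein named for repression of the myelin basic protein gene, and is related to HNRNPM.

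The 8 genes lay on 7 chromosomes (GRCh38, GENCODE 29 gene spans with the exons of the longest transcript). CCDC155 spanned chr19:49388218-49417994 on the + strand with 20 exons, and MYADM chr19:53866223-53876437 on the + strand with 3 exons, its start 4.48 Mb away. SLC6A11 was at chr3:10816200-10940733 (+ strand, 14 exons), ACKR3 at chr2:236567787-236582358 (+ strand, 2 exons) and RBBP8NL at chr20:62410237-62427533 (- strand, 14 exons). AUTS2 covered chr7:69598296-70793495 (+ strand, 19 exons), a span of 1195200 bases. SH3GL2 was at chr9:17579082-17797129 (+ strand, 9 exons) and MYEF2 at chr15:48134631-48178517 (- strand, 17 exons). The strandedness of the counting is not given in the sources used here, so reads from overlapping genes on the opposite strand cannot be told apart. MYEF2 overlapped SLC24A5, CTXN2 and SLC12A1 on the opposite strand, but these had at most 14 counts in any library. MYADM overlapped the antisense genes AC008440.1 and AC008440.2, and SH3GL2 the pseudogene PABPC1P11, for which no counts were used here.

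Promoter sequence was matched in RefSeq (GRCh38.p14) for 5 of the 8 genes, CCDC155 under the symbol KASH5. The stretch just upstream of the first start site of each is shown because transcripts of these genes were detected in 1 line and were near or at 0 in another. CpG dinucleotides, the sites of DNA methylation, are in capitals, and each sequence ends before the annotated start of the gene.
CCDC155, chr19:49387999-49388217, + strand: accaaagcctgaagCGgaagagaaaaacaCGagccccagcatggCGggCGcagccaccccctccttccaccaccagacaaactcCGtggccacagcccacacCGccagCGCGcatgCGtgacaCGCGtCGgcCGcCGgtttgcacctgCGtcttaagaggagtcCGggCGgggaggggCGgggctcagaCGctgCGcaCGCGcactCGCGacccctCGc
SLC6A11, chr3:10815978-10816199, + strand: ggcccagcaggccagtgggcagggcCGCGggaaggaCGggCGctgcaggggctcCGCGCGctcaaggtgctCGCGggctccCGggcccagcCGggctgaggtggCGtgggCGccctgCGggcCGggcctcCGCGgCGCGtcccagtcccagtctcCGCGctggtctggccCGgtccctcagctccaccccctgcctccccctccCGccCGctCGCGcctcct
MYADM, chr19:53866121-53866222, + strand: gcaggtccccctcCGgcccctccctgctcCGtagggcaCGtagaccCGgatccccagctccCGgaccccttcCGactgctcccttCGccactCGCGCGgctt
AUTS2, chr7:69598225-69598295, + strand: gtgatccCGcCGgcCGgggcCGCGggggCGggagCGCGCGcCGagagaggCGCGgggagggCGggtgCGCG
SH3GL2, chr9:17578816-17579065, + strand: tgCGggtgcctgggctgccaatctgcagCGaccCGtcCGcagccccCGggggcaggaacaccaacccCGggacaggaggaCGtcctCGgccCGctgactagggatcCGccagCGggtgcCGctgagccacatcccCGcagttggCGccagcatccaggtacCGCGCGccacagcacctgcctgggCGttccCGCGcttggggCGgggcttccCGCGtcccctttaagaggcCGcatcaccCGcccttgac
All of these stretches are rich in CpG. The full windows, from 250 bases before to 50 after the start site, held 33 CpG for CCDC155, 39 for SLC6A11, 55 for AUTS2 and 31 for SH3GL2. The 3 start sites of MYADM had 31, 23 and 20. The median over the 15664 promoters of tested genes was 24, and over all 35116 promoters it was 14. AUTS2 was at the far end of this range, since 99.7% of the promoters of tested genes had as many CpG or fewer, against 88.3% for SLC6A11, 76.0% for CCDC155 and 70.8% for SH3GL2. MYADM had values of 70.8%, 48.0% and 39.9% for its 3 starts. GC content was 65.7% for CCDC155, 80.0% for SLC6A11, 82.3% for AUTS2 and 71.0% for SH3GL2.

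A set of 3 motifs was searched on both strands of the windows. GGGCGG, the core of the GC box, occurred in 7 of 7 windows, compared with 64.1% of the promoters of tested genes and 45.0% of all promoters. The 7 windows belong to 5 genes, and 3 of them are starts of MYADM, so they are not separate loci. This motif contains a CpG and so overlaps the count above. TATAAA was found in 1 of 7 windows, at the third start of MYADM (6.74% of the promoters of tested genes, 11.5% of all), and CCAAT in 1 of 7, that of SH3GL2 (34.4% and 34.6%). A match is a description of the letters in the window and not of a bound site. DNA methylation was not measured in these libraries.

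**Figure D1:**
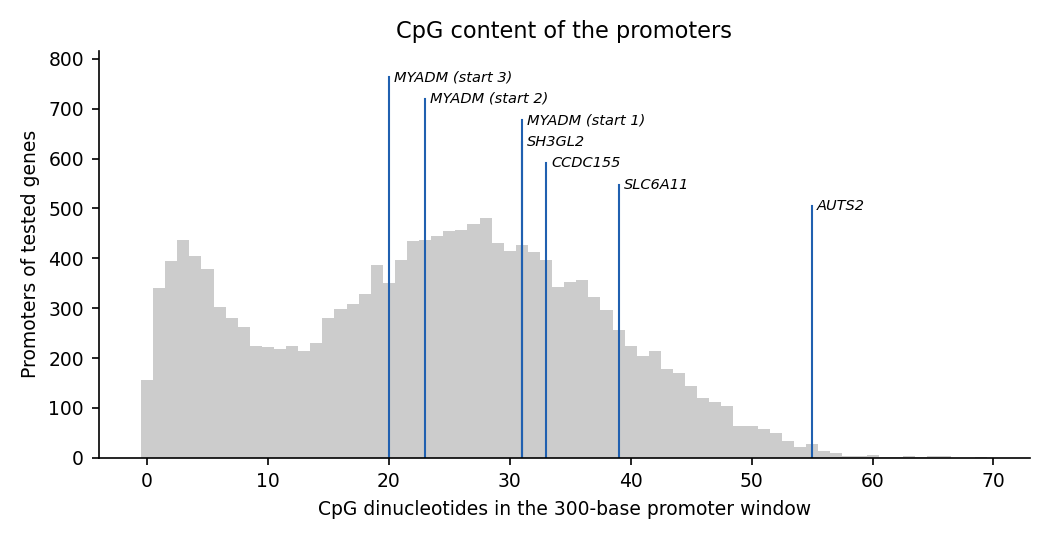
CpG dinucleotides (x axis) in the 300-base windows of the promoters of tested genes, with the number of promoters on the y axis (grey bars). Lines mark the 7 windows of the 5 genes with a matched promoter, which range from 20 CpG (MYADM, start 3) to 55 (AUTS2); line height is only for the labels.

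CCDC155 was the one gene of the table that was lost in both resistant lines (0.0052% of 19220 genes). It had 906 counts in the parental line (848 to 967), 0 in CAL27/5FU and 0 in CAL27/OXA. It was thus transcribed in the parental line and without a single read in either resistant line. The CAL27 level was 9.10 FPKM, percentile 51.5 of the tested genes. Against the floor, CCDC155 was at least 344-fold lower in CAL27/OXA and at least 303-fold lower in CAL27/5FU. Of 4 germ cell markers, DDX4 and DAZL had 0 counts in all 3 libraries and MAEL and TEX101 at most 6. Of other meiotic genes, HORMAD1 had 281, 201 and 254 counts and SYCP2 187, 137 and 194 in CAL27, CAL27/5FU and CAL27/OXA. Neither was near 0 in a resistant line. HORMAD1 and SYCP2 had the most counts of the meiotic genes inspected. SYCP1, SYCE1, TERB2 and SPO11 had 0 counts in all 3 libraries, and SYCP3 had at most 9.

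SLC6A11 and ACKR3 were likewise high in CAL27 and low in both resistant lines, with a few reads left. SLC6A11 had 364 counts in the parental line, 1 in CAL27/5FU and 4 in CAL27/OXA. It met the limit of 3 counts in CAL27/5FU and stood 1 count above it in CAL27/OXA. The ratio to CAL27 was 104-fold lower in CAL27/OXA (40.2 to 383) and 366-fold lower in CAL27/5FU (65.2 to 14485). The 2 resistant lines did not differ beyond counting error for this gene, with a log2 ratio of CAL27/OXA to CAL27/5FU between -1.52 and 7.44. Its level in CAL27 was 1.13 FPKM, percentile 19.3, so the transporter was a low-abundance transcript in CAL27.

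ACKR3 differed in steps between the 3 lines. It had 1709 counts in the parental line, 75 in CAL27/5FU and 5 in CAL27/OXA, or 19.4, 0.956 and 0.0547 FPKM. The receptor transcript was at percentile 71.0 of the tested genes in CAL27 and at percentile 16.1 in CAL27/5FU. In CAL27/OXA it was 390-fold lower than in CAL27 (167 to 1202, log2 ratio -8.09), and in CAL27/5FU 22.9-fold lower (18.2 to 29.3, log2 ratio -4.48). The oxaliplatin-resistant line was also 17.0-fold below the 5FU-resistant line (6.98 to 54.0), so the 3 levels were separated by more than counting error.

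RBBP8NL had the same order of levels. Its counts were 316 in the parental line, 18 in CAL27/5FU and 0 in CAL27/OXA, with 316 just inside the limit of 300. It was at least 120-fold lower in CAL27/OXA than in CAL27, and 17.6-fold lower in CAL27/5FU (11.0 to 30.2). Between the resistant lines the difference was at least 6.81-fold against the floor, and the exact 95% limit was 4.99-fold. Together with CCDC155, RBBP8NL made up 2 of the 4 genes of the table lost in CAL27/OXA (0.0208%). The other 2 were ALDH3B2, an aldehyde dehydrogenase, with 1436, 60 and 0 counts in CAL27, CAL27/5FU and CAL27/OXA, and TMPRSS13, a membrane serine protease, with 333, 30 and 0. Both had the pattern of RBBP8NL, high in CAL27, intermediate in CAL27/5FU and at 0 in CAL27/OXA. Of the 4 genes, 3 were thus not near 0 in CAL27/5FU.

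MYADM and AUTS2 differed from the others in that the loss was found in CAL27/5FU alone. MYADM had 565 counts in the parental line, 0 in CAL27/5FU and 1014 in CAL27/OXA. It was the highest in the line resistant to oxaliplatin, with 7.31 FPKM there and 4.24 in CAL27, a 1.57-fold higher level (1.42 to 1.75). In CAL27/5FU it was at least 189-fold lower than in CAL27 and at least 298-fold lower than in CAL27/OXA.

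AUTS2 had 453 counts in the parental line, 0 in CAL27/5FU and 339 in CAL27/OXA. In the latter its level was 1.52-fold lower than that of CAL27 (1.32 to 1.76), at 1.57 against 2.18 FPKM. In CAL27/5FU the gene was at least 152-fold below CAL27 and at least 99.6-fold below CAL27/OXA. MYADM and AUTS2 were the 2 genes of the table with at most 3 counts in CAL27/5FU and over 300 in both other lines. With the limit at 10 counts, PDPN (666, 4 and 1218 counts in CAL27, CAL27/5FU and CAL27/OXA) and PRAME (726, 10 and 948) were among the genes that had this pattern too.

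In CAL27/5FU, 6 genes of the table were lost (0.0312%), of which 4 were CCDC155, MYADM, AUTS2 and SLC6A11. The other 2 were MGMT, which repairs alkylated guanine in DNA, with 687, 0 and 6 counts in CAL27, CAL27/5FU and CAL27/OXA, and SPRR1B, a precursor of the cornified envelope, with 331, 1 and 18. MGMT and SPRR1B shared the pattern of SLC6A11, near 0 in CAL27/5FU and between the limits in CAL27/OXA, where SPRR1B had more counts than SLC6A11 and MGMT.

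**Figure D2:**
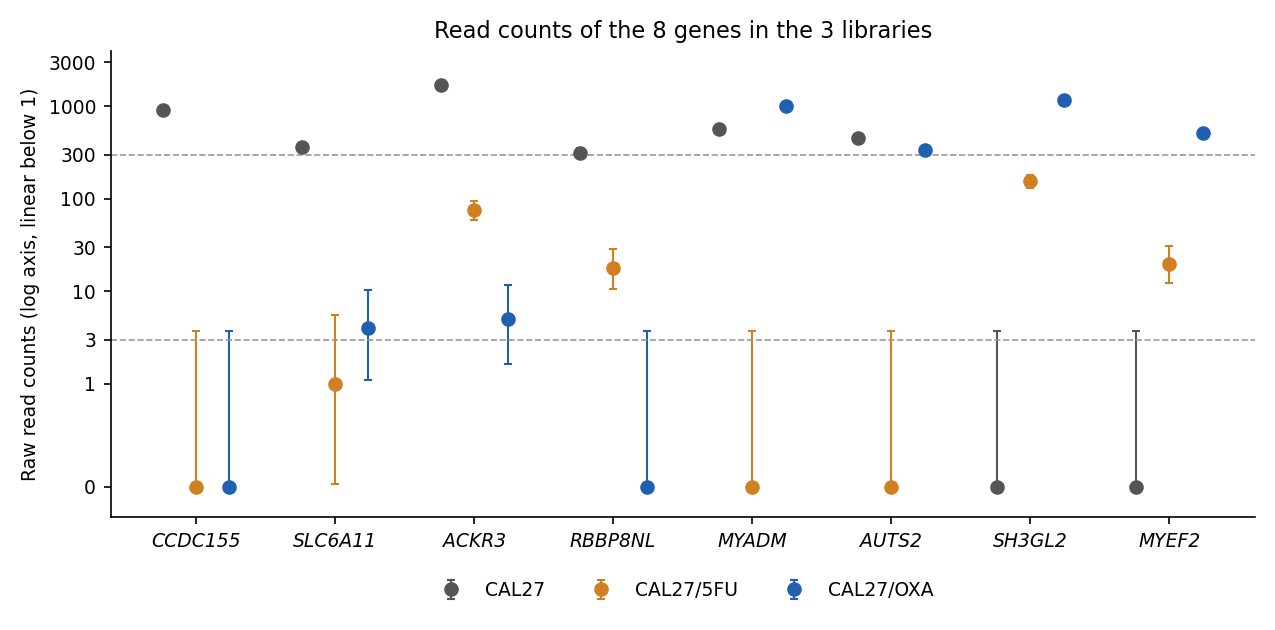
Raw counts of the 8 genes in the 3 libraries (log axis, linear below 1), 1 point per library with its exact 95% Poisson interval. CCDC155 is at 0 in both resistant lines, MYADM and AUTS2 are at 0 in CAL27/5FU alone, and SH3GL2 and MYEF2 are at 0 in CAL27 and highest in CAL27/OXA.

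SH3GL2 and MYEF2 were the 2 of the 8 genes that were gained, and both were highest in the oxaliplatin-resistant line. They were 2 of the 5 genes of the table gained in CAL27/OXA (0.026%). SH3GL2 had 0 counts in the parental line, 156 in CAL27/5FU and 1173 in CAL27/OXA. At 9.87 FPKM in CAL27/OXA it was at percentile 51.9 of the tested genes, and at 1.53 FPKM in CAL27/5FU at percentile 20.0. It was at least 343-fold higher in CAL27/OXA than in CAL27 and at least 51.8-fold higher in CAL27/5FU. The difference between the resistant lines was 6.63-fold (5.60 to 7.88).

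MYEF2 had 0 counts in the parental line, 20 in CAL27/5FU and 511 in CAL27/OXA. Its levels had the same order as for SH3GL2 but stayed close to the detection limit in CAL27/5FU, at 0.0998 FPKM against 2.19 in CAL27/OXA. It was at least 149-fold higher in CAL27/OXA and at least 6.63-fold higher in CAL27/5FU than in CAL27, and 22.5-fold higher in CAL27/OXA than in CAL27/5FU (14.4 to 37.2). The overlapping gene SLC24A5 had 0, 0 and 14 counts in CAL27, CAL27/5FU and CAL27/OXA. As SH3GL2 is known from neurons, neuronal markers were inspected: STMN2 had 0 counts in all 3 libraries, SNAP25 3, 6 and 0, and SYT1 381, 536 and 640. The summed FPKM of the 6 neuronal markers was 4.17 in the parental line, 9.17 in CAL27/5FU and 5.80 in CAL27/OXA. Of these sums, GAD1 alone made up 2.07, 5.87 and 2.46 in the same order. The part of the neuronal markers in the values of SH3GL2 and MYEF2 was not tested.

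Among the other genes gained in CAL27/OXA, ABCC9, the sulfonylurea receptor subunit of potassium channels, had the pattern of SH3GL2 and MYEF2, with 2, 217 and 679 counts in CAL27, CAL27/5FU and CAL27/OXA. ROBO1, a receptor for SLIT ligands, had 0, 1186 and 4013 counts and was the one gene of the table gained past the limit in both resistant lines (0.0052%). TMPRSS15, a serine protease, had 0, 2 and 475 counts and was the one gene gained in CAL27/OXA with CAL27/5FU near 0. None of the 8 genes was among the 4 gained in CAL27/5FU (0.0208%), namely ROBO1, SLAIN1, PGR and ABCB1. SH3GL2, with 156 counts there, and MYEF2, with 20, were below the limit of 300.

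**Figure D3:**
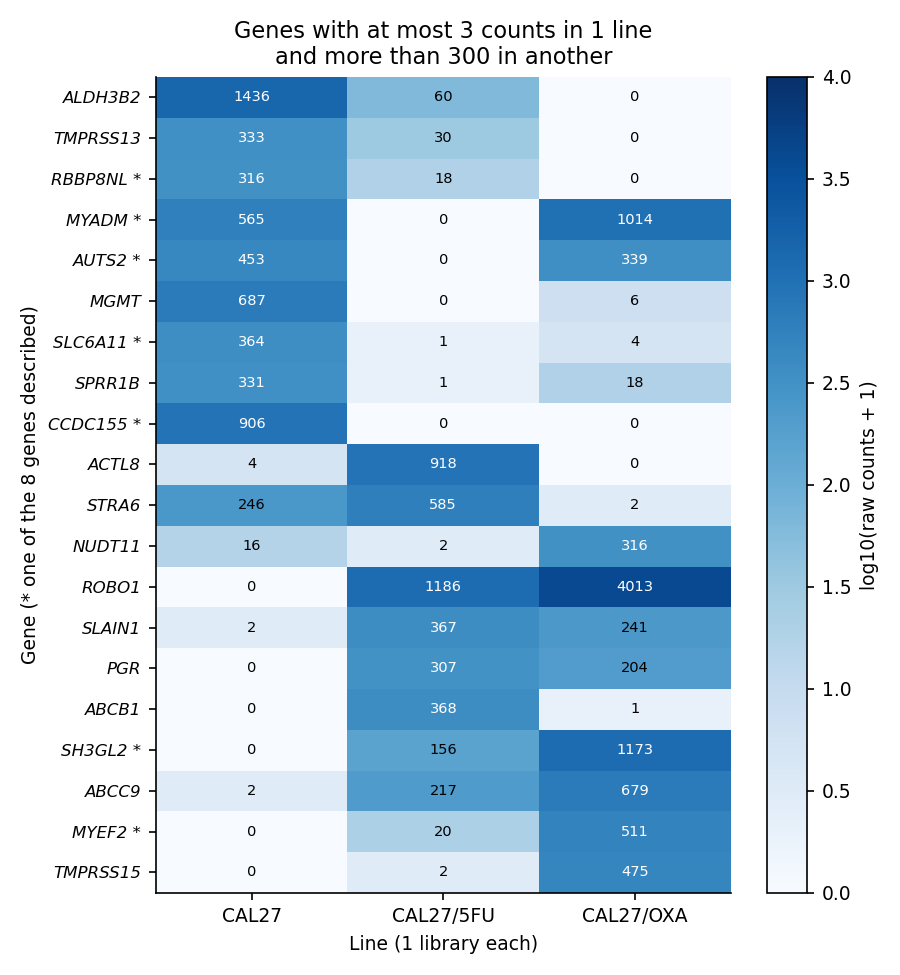
Raw counts of the 20 genes with at most 3 counts in 1 library and over 300 in another, by library (colour on a log scale), with the 7 genes described here that are among them. The genes group by pattern: CCDC155 is alone at 0 in both resistant lines, and SH3GL2, MYEF2 and ABCC9 are near 0 in CAL27 and highest in CAL27/OXA.

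The 8 genes can be set against all 13676 tested genes (mean of 10 counts or more), for which log2 ratios of TMM-normalised CPM (counts scaled to library size) were computed with a prior count of 2. In CAL27/OXA, 894 genes exceeded CAL27 by more than 2-fold (6.54%) and 1269 were below it by as much (9.28%). In CAL27/5FU, 1157 were higher (8.46%) and 919 lower (6.72%). All 8 genes were past 2-fold in CAL27/5FU and 6 of 8 in CAL27/OXA, which the choice of the genes by these counts largely fixed. MYADM and AUTS2, at log2 ratios of 0.65 and -0.60, were the exceptions in CAL27/OXA. Over all tested genes the median log2 ratio was 0.01 in CAL27/OXA and -0.0035 in CAL27/5FU, and it moved to 0.14 and 0.17 with scaling by total counts. With that scaling CAL27/OXA had 1100 genes higher and 1052 lower, and CAL27/5FU 1432 higher and 699 lower.

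**Figure D4:**
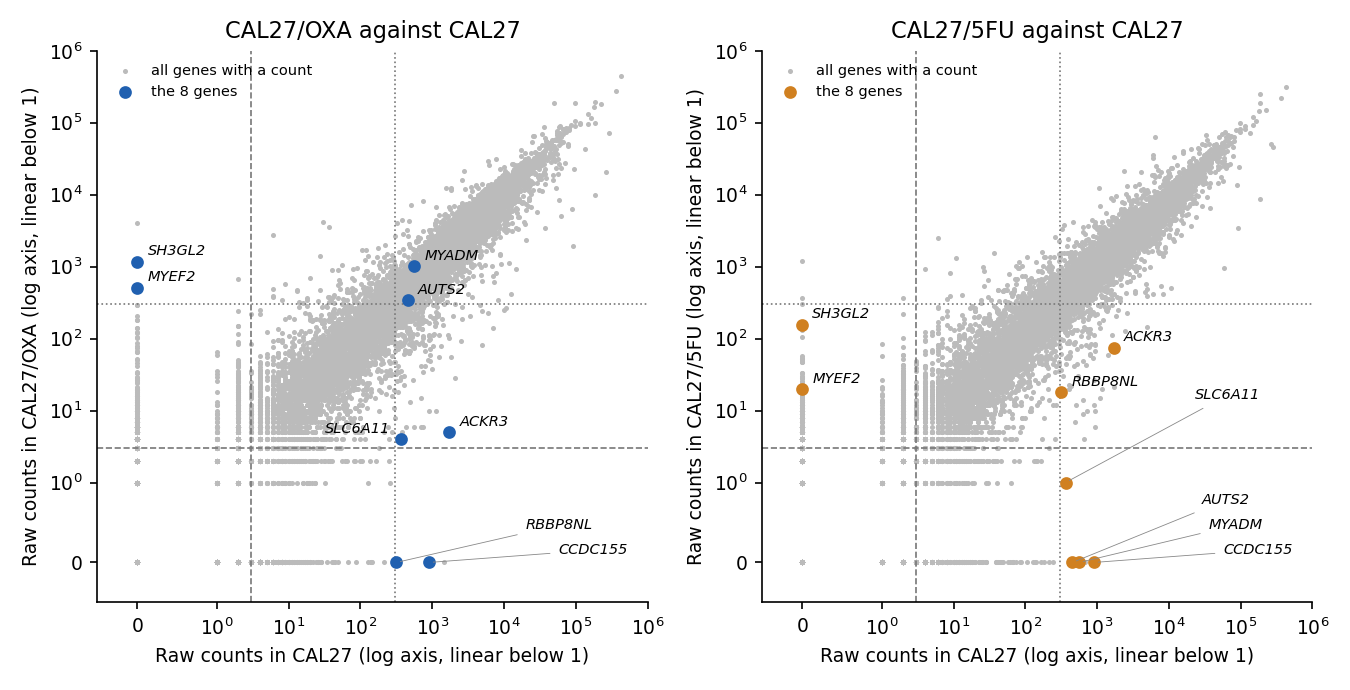
Raw counts of every gene with a count in CAL27 (x axis) against CAL27/OXA (left) and CAL27/5FU (right), on log axes that are linear below 1; dashed lines mark 3 counts and dotted lines 300. MYADM and AUTS2 lie within the cloud of all genes in CAL27/OXA and at 0 in CAL27/5FU, whereas CCDC155 lies at 0 in both.

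The position of the genes was not used to choose them, and the tested genes closest to each, 5 per side, were therefore examined. Starts and distances of neighbours refer to the lowest coordinate of each gene, whatever its strand. Of the 80 neighbours, 7 were past 2-fold higher and 4 past 2-fold lower in CAL27/OXA, and 8 were higher and 7 lower in CAL27/5FU. These are 8.75% and 5.00% in CAL27/OXA and 10.0% and 8.75% in CAL27/5FU, close to the 6.54%, 9.28%, 8.46% and 6.72% of all tested genes, so the neighbours below are a description of each locus. The neighbours of the lost genes did not show a loss of comparable size. For CCDC155 their median log2 ratio was -0.24 in CAL27/OXA, with values from -1.30 (TEAD2, a transcription factor of the Hippo pathway) to 0.02, and -0.40 in CAL27/5FU, where TRPM4, a cation channel, was lowest at -1.03. The CAL27/5FU median became positive when no filter on low counts was applied. For RBBP8NL the medians were -0.15 and -0.36, and 0 of 10 neighbours passed 2-fold in either line. Around SLC6A11 the neighbours were slightly higher, with medians of 0.31 in CAL27/OXA and 0.38 in CAL27/5FU. TIMP4, a metalloproteinase inhibitor, was among them with log2 ratios of 1.23 and 1.07, and HRH1, the H1 histamine receptor, with 1.00 and 0.82.

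ACKR3 lay between neighbours that moved in different directions. IQCA1, which starts 0.24 Mb away, had 118, 188 and 20 counts in CAL27, CAL27/5FU and CAL27/OXA and was lower in CAL27/OXA (log2 ratio -2.62), and the homeobox gene GBX2 had 16, 95 and 95 counts and was higher in both lines (2.25 and 2.43). The neighbour medians of 0.09 and 0.18 turned negative with a minimum mean of 50 counts. For MYADM the median was -0.17 in CAL27/5FU and -0.03 in CAL27/OXA, this one positive under 5 alternatives. OSCAR, an immunoglobulin-like receptor 0.23 Mb away, had 31, 2 and 25 counts, near 0 in CAL27/5FU alone as for AUTS2 and MYADM, but from a low level. The zinc finger gene ZNF816 was lower in both lines with 38, 5 and 2 counts, but it shares exons with the read-through gene ZNF816-ZNF321P and the division of reads between them is uncertain.

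Around AUTS2 the 2 sides differed in CAL27/5FU. The 5 genes above it, TYW1B, POM121, TRIM74, NSUN5 and BAZ1B, had a median log2 ratio of -0.98 in CAL27/5FU and -0.02 in CAL27/OXA. Those below it had -0.02 and 0.14. BAZ1B, a chromatin remodelling factor, had 6342, 3620 and 7480 counts in CAL27, CAL27/5FU and CAL27/OXA, with a log2 ratio of -0.82 in CAL27/5FU. TYW1B, POM121, TRIM74 and NSUN5 have close copies in this part of the chromosome, so the assignment of their reads is uncertain. These 5 genes start 2.96 to 3.84 Mb from the start of AUTS2, and their log2 ratios in CAL27/5FU, from -3.10 to -0.82, were closer to 0 than that of AUTS2 (at least 152-fold lower).

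Genes next to the 2 gained genes included some that were higher in the resistant lines, but none met the limits for a gain. BNC2, a zinc finger protein 1.17 Mb from SH3GL2, had 9 counts in the parental line, 387 in CAL27/5FU and 567 in CAL27/OXA (log2 ratios 5.15 and 5.52). With near 0 at up to 10 counts, BNC2 counted as gained in both resistant lines. The median around SH3GL2 was nevertheless 0.25 in CAL27/OXA and 0.08 in CAL27/5FU. PLIN2, another neighbour of SH3GL2, had 22, 9 and 16 counts in CAL27, CAL27/5FU and CAL27/OXA and was lower in CAL27/5FU (log2 ratio -1.14). Around MYEF2, 3 of 10 neighbours were more than 2-fold higher in CAL27/OXA, namely SEMA6D, a semaphorin (7, 20 and 56 counts in CAL27, CAL27/5FU and CAL27/OXA), SHC4, a signalling adaptor (4, 12 and 37), and FBN1, which encodes fibrillin (18, 273 and 66). SEMA6D and SHC4 had the order of MYEF2 in the 3 lines, whereas FBN1 and C15orf48 (466, 4170 and 637) were highest in CAL27/5FU. With 7 and 4 counts in CAL27, SEMA6D and SHC4 passed the filter (mean of 10 counts) only through the resistant lines, where they were higher. The same held for BNC2, with 9 counts in CAL27. The medians around MYEF2 were 0.29 and 0.39.

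**Figure D5:**
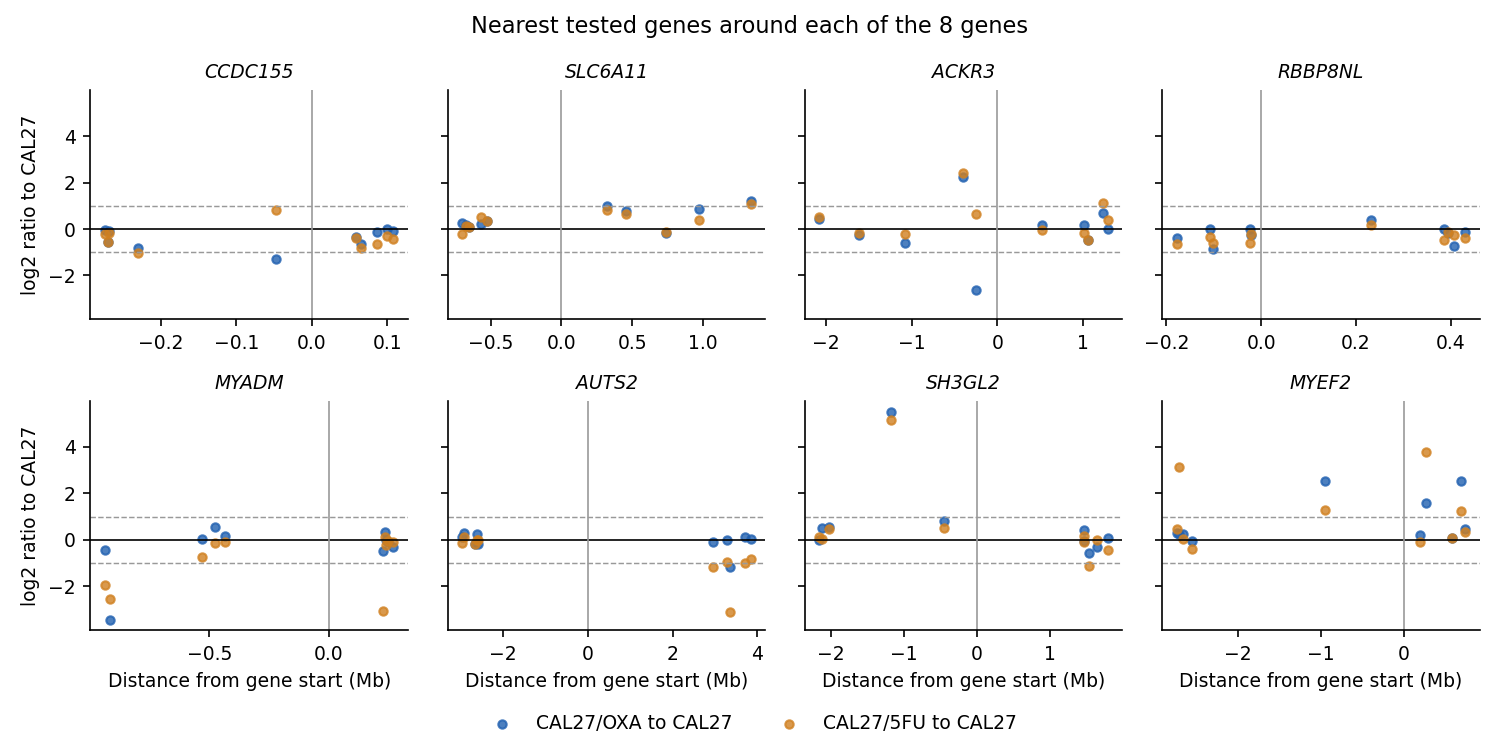
Log2 ratio to CAL27 of the 10 nearest tested genes around each of the 8 genes (y axis) against distance in Mb (x axis), for CAL27/OXA and CAL27/5FU. Distance is between the lowest coordinates of the genes, whatever their strand. Most neighbours lie within 2-fold (log2 ratio -1 to 1), with BNC2 near SH3GL2 at 5.52 and 5.15 as the highest.

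To place the genes in their pathways, 11 lists of related genes were described. Counts past 2-fold stand against the shares of all tested genes given above. The best known partners of CCDC155 were expressed in all 3 lines. Among 12 tested genes of the LINC complex and meiotic chromosomes the median log2 ratio was -0.36 in CAL27/OXA and -0.42 in CAL27/5FU, with 1 higher and 1 lower, and 1 higher and 2 lower. SUN1, which anchors CCDC155, had 13117, 8372 and 9543 counts in CAL27, CAL27/5FU and CAL27/OXA, with log2 ratios of -0.65 in both resistant lines. Among other KASH-domain genes, SYNE3 was higher in CAL27/OXA (9, 37 and 46 counts, log2 ratio 1.95) and SYNE4 lower (85, 29 and 36, log2 ratio -1.38). SYNE3, with 9 counts in CAL27, passed the filter only through the resistant lines. All 19 dynein and dynactin genes stayed within 2-fold in both lines. Their medians were -0.09 in CAL27/OXA, which was positive with scaling by total counts and in FPKM, and -0.24 in CAL27/5FU.

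Among the genes of the GABA system, to which SLC6A11 belongs, some receptor subunits had 0 counts in CAL27 and reads in the resistant lines. Of 9 tested genes of GABA metabolism and GABA-A receptors, 3 were higher and 1 lower in CAL27/OXA (median 0.11), and 4 were higher and 0 lower in CAL27/5FU (median 0.45). Those higher in CAL27/5FU were GAD1, GABRA3, GABRA2 and GABRG1. In CAL27, CAL27/5FU and CAL27/OXA, GAD1 had 205, 518 and 253 counts (log2 ratio 1.32 in CAL27/5FU) and GABRA3 113, 245 and 231 (1.10). GABRG1 did not exceed counting error in CAL27/5FU, where its log2 ratio had a lower limit of -0.61. With a minimum mean of 50 counts the higher genes numbered 1 in CAL27/OXA and 2 in CAL27/5FU (GAD1 and GABRA3). GABRG1 and GABRA2 passed the filter only through the lines in which they were high. GABRG1, a receptor subunit, had 0, 4 and 142 counts in CAL27, CAL27/5FU and CAL27/OXA and was at least 41.5-fold higher in CAL27/OXA. GABRA2, another subunit, had 0, 10 and 28 counts, at least 8.18-fold higher in CAL27/OXA. ABAT, which degrades GABA, had 47, 64 and 130. GABRE, a further subunit, had 1126, 781 and 357 (log2 ratio -1.84 in CAL27/OXA). GABRB1, which belongs to the same gene cluster as GABRG1 and GABRA2 and was below the filter, had 0, 4 and 18. GABRG1, GABRA2 and GABRB1 thus had the order of SH3GL2 and MYEF2, and GABRE that of ACKR3.

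The relatives SLC6A12 and SLC6A13 of SLC6A11 had low counts. SLC6A13 had at most 1 count in any library. SLC6A12 had 60, 130 and 28 counts in CAL27, CAL27/5FU and CAL27/OXA, higher in CAL27/5FU (log2 ratio 1.08) and lower in CAL27/OXA (-1.23). The creatine transporter SLC6A8 was the most abundant of the family, with 155.6 FPKM in the parental line, 68.6 in CAL27/5FU and 57.0 in CAL27/OXA. Of 7 tested SLC6 genes, 0 were higher and 2 lower in CAL27/OXA (median -0.18), and 1 was higher and 2 lower in CAL27/5FU (median -0.30, positive with a minimum mean of 50 counts).

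The partners of ACKR3 were expressed in part. CXCL12, CXCR4 and CXCR3 had 0 counts in all 3 libraries, whereas MIF, a cytokine that ACKR3 also binds, was abundant with 28181, 21067 and 25811 counts in CAL27, CAL27/5FU and CAL27/OXA. The arrestin genes ARRB1 (315, 419 and 431) and ARRB2 (1412, 940 and 1762) were expressed too. CXCL11, the other chemokine ligand of ACKR3, had 612, 2171 and 374 counts in CAL27, CAL27/5FU and CAL27/OXA (log2 ratios 1.82 in CAL27/5FU and -0.90 in CAL27/OXA). ADM, the peptide adrenomedullin that ACKR3 also binds, had 5128, 1605 and 2972 (-1.68 and -0.98). Of 8 tested genes of this axis, 0 passed 2-fold in CAL27/OXA, and CXCL11 was higher and ADM lower in CAL27/5FU. Their medians of -0.01 in CAL27/OXA and -0.03 in CAL27/5FU turned positive with scaling by total counts or the upper quartile.

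The relatives of RBBP8NL and AUTS2 differed little between the lines. RBBP8 had 2776, 3327 and 3043 counts in CAL27, CAL27/5FU and CAL27/OXA, and none of the 15 tested DNA end resection genes passed 2-fold in CAL27/OXA (median 0.22). In CAL27/5FU, SAMHD1, a nuclease cofactor that also hydrolyses nucleotides, was the 1 gene past 2-fold (log2 ratio 1.39). Of the AUTS2 paralogues, FBRSL1 had log2 ratios of -0.18 in CAL27/OXA and 0.44 in CAL27/5FU, and FBRS -0.17 and -0.15. All 25 genes of the AUTS2 family and Polycomb repressive complex 1 were within 2-fold in both lines, with medians of 0.00 and 0.04, although 1 was higher in CAL27/5FU with scaling by total counts.

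Among the MARVEL domain genes, to which MYADM belongs, 3 of 18 were higher and 3 lower in CAL27/OXA, and 2 were higher and 2 lower in CAL27/5FU (4 higher with scaling by total counts). Their medians were -0.08 in CAL27/OXA, positive with scaling by total counts and in FPKM, and 0.17 in CAL27/5FU. MALL, a raft protein, had 703, 81 and 42 counts in CAL27, CAL27/5FU and CAL27/OXA (log2 ratio -4.19 in CAL27/OXA), SYNGR1 had 58, 6 and 8 (-2.75), and MAL2 had 9667, 5287 and 5175 (-1.09). CMTM3 was higher, with 184, 672 and 1048 counts (2.31), as were PLLP (1.47) and CMTM1 (1.17). The relative MYADML2 had at most 8 counts in any library. No tested member of this list thus shared the pattern of MYADM, since MALL and SYNGR1 were low in both resistant lines.

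The endophilin relatives of SH3GL2 were present in all 3 lines. SH3GL1 had 14029, 6776 and 9895 counts in CAL27, CAL27/5FU and CAL27/OXA, 95.7 FPKM in CAL27/OXA against 9.87 for SH3GL2, and SH3GL3 had 46, 10 and 30. None of the 25 tested genes of endophilin, BAR domain and clathrin endocytosis passed 2-fold in CAL27/OXA (median -0.04), and 3 were lower in CAL27/5FU (median -0.16), namely SH3GL1 (-1.06), SH3GL3 (-2.01) and the dynamin gene DNM1 (-1.26). Both medians turned positive with scaling by total counts. HNRNPM, the relative of MYEF2, had 151.3, 142.2 and 160.3 FPKM in the 3 lines in the same order, and 0 of the 5 tested MYEF2 related and myelin genes passed 2-fold in either line (medians 0.08 and 0.06).

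Genes of DNA methylation and Polycomb repressive complex 2, which act on CpG-rich promoters, were described last. Of 17 tested genes, 2 were lower in CAL27/OXA and 1 in CAL27/5FU, and 0 were higher in either. With scaling by total counts 1 was higher and 1 lower in CAL27/OXA and 0 were lower in CAL27/5FU. The calls that changed lie close to 2-fold, whereas that of TET1 in CAL27/OXA does not. UHRF1, which brings DNMT1 to replicated DNA, had 5082, 5913 and 11231 counts in CAL27, CAL27/5FU and CAL27/OXA (log2 ratios 0.95 in CAL27/OXA and 0.21 in CAL27/5FU). TET1, which oxidises methylated cytosine, had 300, 145 and 68 counts in CAL27, CAL27/5FU and CAL27/OXA (log2 ratios -2.29 in CAL27/OXA and -1.05 in CAL27/5FU). DNMT3A, a de novo methyltransferase, had 481, 439 and 270 (-1.02 and -0.14). DNMT1, which maintains methylation, differed little (0.10 and 0.21). The medians were -0.14 in CAL27/OXA and -0.10 in CAL27/5FU, the second positive with scaling by total counts. Whether these levels bear on the 8 genes was not tested.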

How the data were processed

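RNA-seq values of CAL27, CAL27/5FU and CAL27/OXA were analysed, 1 library per line. The authors deposited read counts per gene without normalization (19220 genes) and FPKM values (19225 genes). Per the submitters' processing notes, CASAVA 1.8, HISAT2 2.0.5 and GRCh38/hg38 were used, and the counting tool and strandedness are not given in the sources used here. Gene length recovered from counts, FPKM and library totals was the same within 0.1% in all 3 libraries for 100% of 14367 genes, so the deposited FPKM are scaled by total counts. Each table has 3 more columns, named as a second one for each of these lines. No sample label covers them, so they were left out and may be replicates.

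Raw counts were compared with limits of 3 and 300. TMM factors (0.932 in the parental line, 1.05 in CAL27/5FU and 1.02 in CAL27/OXA; edgeR 4.0.16, R 4.3.3) gave log2 CPM (prior count 2) for the 13676 genes that averaged 10 counts or more. Size factors from DESeq2 1.42.0 were an alternative. With 1 library per line, no test was run. The scripts were tested on simulated data. Neighbours were taken from GENCODE 29, in which 13418 of the tested genes were found, and promoters from RefSeq. The genes named are the 8 genes and genes with the same on or off pattern (the 5 with the highest count). Neighbours and list genes past 2-fold and close relatives were named too. Not described above are RBM44, a neighbour of ACKR3 (log2 ratio 1.12 in CAL27/5FU), and the list genes SUN3 (-2.15) and SLC6A14 (-2.68 in CAL27/5FU). These were past 2-fold in CAL27/5FU alone. Further genes were named after their values were seen. These are the other genes gained in CAL27/5FU or CAL27/OXA, list genes past 2-fold in CAL27/5FU alone (without SUN3 and SLC6A14), and ligands and partners. They also include PDPN, PRAME, GABRB1, DNMT1, UHRF1, HORMAD1, SYCP1, SYCP2, SYCP3, SYCE1, TERB2, SPO11 and the genes above AUTS2 within 2-fold. The 8 genes and the lists were chosen with earlier results of these data known.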

Additional observations from a re-analysis of the deposited data

Results flagged for a closer look

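MYADM moved in opposite directions in the 2 resistant lines relative to the shared CAL27 library. Its log2 ratio was 0.65 in CAL27/OXA, with 1014 counts against 565 in CAL27, whereas in CAL27/5FU it had 0 counts and was at least 189-fold lower. The difference between the lines was not tested, as each line had 1 labelled library.

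SLC6A12, a betaine and GABA transporter related to SLC6A11, had 60 counts in the parental line, 130 in CAL27/5FU and 28 in CAL27/OXA. Its log2 ratio was -1.23 in CAL27/OXA and 1.08 in CAL27/5FU, and this difference was not tested either.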

How the results depend on the processing

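With 1 library per line, no leave-one-out analysis was made, and depth limits the calls at 0: a count of 0 allows up to 3.69 counts. No paired analysis was possible because each group had only 1 library with a sample label, so replicate number 1 was the one number the groups shared. The 23 log2 ratios of the 8 genes kept their sign under 7 of 7 alternatives of scaling, prior count and FPKM pseudocount. The choice of the genes by near 0 against high counts fixed most of these signs in advance. For SLC6A11 between the resistant lines (4 against 1 count) the sign lay within counting error. Of the values, 46 of 161 moved beyond the counting interval. For ratios against 0 or very few counts the size follows the prior count or pseudocount. The signs of medians that turned are given beside them. Of the other values, 156 of 160 neighbour medians, 192 of 198 list medians and 341 of 396 list counts moved by less than the semi-interquartile range of their genes (medians) or 1.5 times (counts).

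The counts of switched genes depended on the limits. With near 0 at up to 10 counts, 14 genes were lost and 11 gained in CAL27/OXA (11 lost with CAL27/5FU not near 0, and 2 gained with it near 0), 12 were lost and 9 gained in CAL27/5FU, 3 were lost and 3 gained in both, and 44 met the rule in all. With high taken as over 100 counts the values were 16, 21, 7 and 6 for CAL27/OXA, 19 and 10 for CAL27/5FU, 9 and 8 for both, and 58 in all. With high taken as over 1000 counts they were 1, 2, 1 and 0 for CAL27/OXA, 0 and 1 for CAL27/5FU, 0 lost in both, and 4 in all. With near 0 at exactly 0 counts, 0 genes were gained in CAL27/OXA with CAL27/5FU near 0. Of genes past 2-fold, FPKM with a pseudocount of 1 gave 368 higher and 481 lower in CAL27/OXA, and 503 and 311 in CAL27/5FU. Without a filter on low counts these were 1348 and 1925, and 1899 and 1555. A minimum mean of 50 counts gave 760 higher in CAL27/5FU. Alternatives of TMM or total-count scaling of the limits left each count of switched genes within 1.5 times.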
